A study of Mus musculus with 8 samples.

Results

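The 31 genes described here encode complement components and their regulators and receptors. They were taken from a fixed list by gene symbol, and all 31 were found among the 35275 gene identifiers of a table of mouse liver RNA-seq. The table holds 8 libraries, of which 4 carry the label WT (wild type) and 4 the label Triple LKO, each genotype with 2 females (libraries 1 and 2) and 2 males (libraries 3 and 4). By the series title LKO means a liver-specific knockout. The 3 targeted genes encode the tristetraprolin (TTP) family of proteins: Zfp36, Zfp36l1 and Zfp36l2. These proteins bind AU-rich sites in mRNAs and promote their decay. The labels give tissue, genotype and sex. The sources used here do not give the driver that makes the deletion liver-specific, the strain, the age or the part of the liver sampled, nor is it said that each sample came from its own animal, so p-values reflect variation among these 8 samples alone.

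Complement is a cascade of plasma proteins in which recognition molecules (C1q, mannose-binding lectins, ficolins and collectins) activate serine proteases that cleave C4, C2 and C3. Cleavage of C3 and then C5 leads to a pore built from the terminal components, while regulators stop the cascade on host cells and receptors on leukocytes read the cleaved fragments. The liver is the main source of most plasma components, which hepatocytes secrete, whereas C1q, properdin, mouse ficolin A and the anaphylatoxin receptors are made mainly by macrophages and other myeloid cells. By this textbook division 20 of the 31 genes were classed as hepatocyte-made, 7 as macrophage-made and 4 as of other or mixed source.

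Values are FPKM, the number of fragments divided by transcript length and by library size, and the libraries held between 15.1 and 18.8 M fragments. Zfp36 was lower in every LKO-labelled library (3.66 to 17.4 FPKM) than in every WT library (29.5 to 61.4), and Zfp36l1 likewise (0.499 to 8.63 against 10.6 to 21.9). Zfp36l2 went against the label in the females, at 18.1 and 33.04 FPKM, above all 4 WT libraries (11.8 to 17.2), and was below them in the males, at 4.34 and 3.86. Groups are therefore called LKO-labelled throughout. Hepatocyte markers were abundant in every library, with Alb, which encodes albumin, at 30795 to 36039 FPKM in WT and 15078 to 21853 in LKO-labelled livers. The sum of 9 hepatocyte markers was 46722 to 52020.1 FPKM in WT and 26269.8 to 41694 in LKO-labelled livers. WT replicate 4 and LKO-labelled replicate 1 stood apart in Gm42418 (a gene model lying over ribosomal RNA), which took 0.0653% and 0.0513% of their FPKM against 3.59% to 5.0% in the other 6 libraries. Results were therefore also computed without these libraries.

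Of the 31 genes, 30 had a mean of at least 0.5 FPKM and were tested, and Cfd was not. On the scale log2(FPKM + 1), with genotype and sex as terms in limma and a Benjamini-Hochberg adjusted p under 0.05 over 13573 genes, 3 genes were higher in LKO-labelled livers and 8 were lower. Over all genes tested 24.7% were higher and 5.74% were lower. The 3 that rose were C1qa, C1qb and C5ar1, all macrophage-made. The 8 that fell were C1rl, C4bp, C6, C8b, C8g and Mbl1, which hepatocytes make, the macrophage-made Fcna, and Cd59a. The median change of the 30 genes was −0.68 beside 0.39 for all genes tested. With libraries left out singly, the counts ran from 0 to 5 higher and from 4 to 11 lower. The first was 0 without WT replicate 1 or 2 or LKO-labelled replicate 1, 1 without WT replicate 3 or LKO-labelled replicate 4, and 5 without LKO-labelled replicate 3. The second was 4 without WT replicate 1, 3 or 4 or LKO-labelled replicate 3 or 4. Without both libraries low in Gm42418, 0 were higher and 3 lower. With livers of neighbouring title numbers as a replicate block, 0 were higher and 4 lower (C1rl, C8g, Mbl1 and Fcna). Scaling bears on the split: of all genes called, 81.1% were higher with the deposited values, 48.9% after median-of-ratios scaling and 43.2% after quantile normalization. Under these scalings the median of all genes moved from 0.39 to 0.05 and −0.02, and 1 and 0 of the complement genes were called higher while 13 and 9 were called lower.

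**Figure D1:**
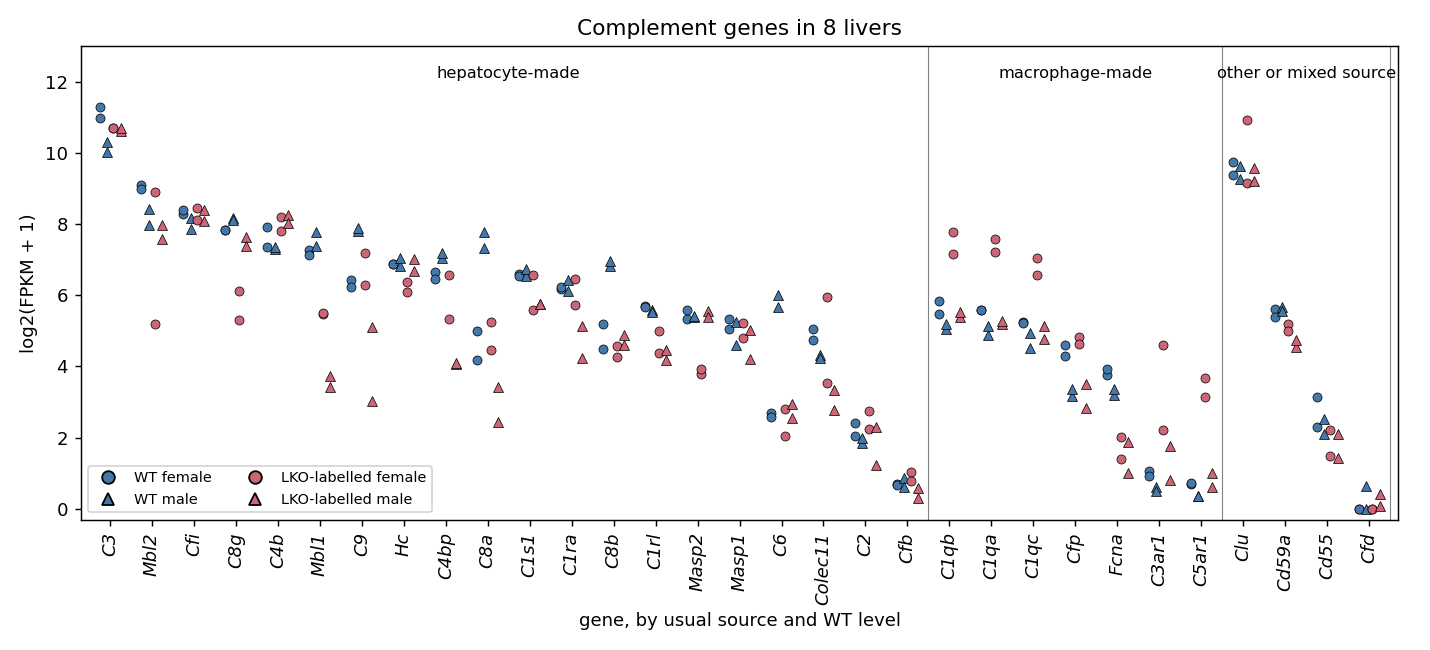
Level of each of the 31 complement genes in each of the 8 libraries, as log2(FPKM + 1), ordered by usual source and by mean WT level. Circles are females and triangles males, blue is WT and red LKO-labelled. Among hepatocyte-made genes the red triangles lie far below the blue ones for Mbl1, C9, C4bp, C8a, C8b and C6, and among macrophage-made genes the red circles lie above the rest for the C1q chains and both receptors.

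In 5 of the 30 genes (C1rl, C8g, Mbl1, Fcna and Cd59a) every LKO-labelled library lay below every WT library, as did 5.72% of all genes tested. In 0 of the 30 did every LKO-labelled library lie above every WT library, against 25.6% of all genes. The genotype calls of C1rl, Mbl1 and Fcna held in all 20 alternative analyses. Those of the other 8 called genes ended in some of them, and the losses when 1 library is left out are given with each gene. All 8 calls ended without both libraries low in Gm42418. Those of C1qa, C1qb, C5ar1, C4bp, C6, C8b and Cd59a ended with a replicate block, those of C1qa, C1qb, C5ar1, C4bp, C6 and C8b with no filter on low values, and those of C1qa, C1qb, C5ar1, C6, C8b and C8g with no term for sex. Those of C1qa, C1qb and C5ar1 also ended after quantile normalization and with array weights. C1qa and C1qb further lost theirs after median-of-ratios scaling and with totals formed without the 50 most abundant genes. In all, C1qa was called in 5 of 20 alternatives, C1qb in 6 of 20 and C5ar1 in 8 of 19. Of the genes that fell, C6 was called in 8 of 20, C8b in 11, C4bp in 12, Cd59a in 13 and C8g in 16.

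Mbl1 encodes mannose-binding lectin A, a plasma protein that recognises microbial sugars and starts the lectin pathway (ENSMUSG00000037780, chr14:41151458-41159601, plus strand, GRCm38). It measured 154 and 138 FPKM in the WT females, 217 and 167 in the WT males, 43.5 and 44.3 in females labelled LKO, and 9.63 and 12.3 in males labelled LKO. Both sexes were low in the LKO-labelled livers, the males most of all, and the genotypes did not overlap. Its mean fell from 169 ± 34.0 in WT to 27.4 ± 19.0 FPKM (SD, n = 4 each), with a log2 change of −2.86 ± 0.43 (SE; limma adjusted p 0.00368). The fall was −1.71 in females and −4.01 in males, and the difference between them, 2.30 ± 0.33 (SE), passed the threshold (limma interaction, adjusted p 0.0154). That interaction call ended without any of the 4 WT libraries or LKO-labelled replicate 3, with an adjusted p of at most 0.0866 over the alternatives. The WT sexes differed by 0.38 (limma adjusted p 1).

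Mbl2 encodes mannose-binding lectin C, the second mouse mannose-binding lectin. It measured 549.9 and 504 FPKM in the WT females, 251 and 344 in the WT males, 480.4 and 35.5 in females labelled LKO, and 189.9 and 251 in males labelled LKO. A single library, LKO-labelled replicate 2, was far below the rest, and the genotypes overlapped (log2 −1.21 ± 0.72 SE; limma adjusted p 0.216). Colec11, collectin 11, which also recognises sugars, measured 25.9, 31.9, 18.9 and 17.9 FPKM in WT replicates 1 to 4 and 10.5, 60.6, 9.04 and 5.84 in the LKO-labelled ones. Here the same female was the highest of the 8 libraries while the other LKO-labelled livers were the lowest, and no difference passed the test (log2 −0.69 ± 0.49 SE; limma adjusted p 0.29). Without that library Colec11 was called lower (log2 −1.28, limma adjusted p 0.00538). Fibroblast-like cells also make this gene, and the sum of 10 stellate cell and fibroblast markers was 1449 FPKM in that library against 41.7 to 444 in the other LKO-labelled ones. The part of those cells in the value was not tested.

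The proteases that act with these lectins behaved unlike each other. Masp2, which cleaves C4 and C2, measured 39.4 and 46.6 FPKM in the WT females, 41.2 and 41.9 in the WT males, 12.7 and 14.1 in females labelled LKO, and 45.8 and 40.7 in males labelled LKO. The LKO-labelled females alone were low. Masp2 fell in females to 31.3% of WT (log2 −1.60 ± 0.20 SE; limma adjusted p 0.00162, and called in all 18 alternatives), and its change in males was 0.05 ± 0.20 (SE; limma adjusted p 0.895). The female minus male difference was −1.66 ± 0.29 (SE; limma interaction, adjusted p 0.0231), a call that ended without any WT library or LKO-labelled male. Masp2 overlaps Tardbp on the opposite strand, and the strand setting of the counts is not stated. Masp1, whose product activates MASP-2, measured 23.5 to 39.4 FPKM in WT and 17.4 to 36.5 in LKO-labelled livers (log2 −0.24 ± 0.24 SE; limma adjusted p 0.456).

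Fcna encodes ficolin A, a lectin-pathway recognition protein that in mice is made by tissue macrophages (ENSMUSG00000026938, chr2:25624666-25628030, minus strand). It measured 12.4 and 14.1 FPKM in the WT females, 8.18 and 9.39 in the WT males, 1.63 and 3.04 in females labelled LKO, and 1.01 and 2.69 in males labelled LKO. All 4 LKO-labelled libraries were low and the genotypes did not overlap. The mean fell from 11.04 ± 2.73 FPKM in WT to 2.09 ± 0.94 in LKO-labelled livers (SD, n = 4 each), a log2 change of −1.99 ± 0.24 (SE; limma adjusted p 0.00172). The fall was called in females (log2 −2.13) and in males (−1.84), the latter not without WT replicate 3 or 4 or LKO-labelled replicate 3, and the sexes did not differ in it beyond the threshold (interaction −0.29 ± 0.48 SE; limma adjusted p 0.743). In the LKO-labelled libraries it rests on 26 to 70 fragments each. Fcna was the sole macrophage-made complement gene of the list to fall. Fcnaos overlaps it on the opposite strand.

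Kupffer cells are the resident macrophages of the liver, and their markers moved with Fcna. Of 7 Kupffer cell markers 5 fell with genotype (Clec4f, Timd4, Vsig4, Marco and Folr2) and 0 rose, where 5.74% and 24.7% of all genes tested did. Within females 5 fell (Clec4f, Timd4, Vsig4, Cd5l and Marco), and within males 2 fell (Timd4 and Marco), where 6.23% and 4.09% of all genes fell. The summed level of the 7 markers was 108 to 236 FPKM in WT and 52.6 to 115 in LKO-labelled livers, with none at 0 in all libraries. Clec4f, a receptor specific to Kupffer cells, stood at 25.5 to 51.5 FPKM in WT and 1.30 to 19.8 in LKO-labelled livers. Relative to Csf1r, a receptor gene that macrophages in general express, Fcna had a ratio of FPKM of 0.83 to 1.20 in WT and 0.0503 to 0.264 in LKO-labelled livers. In bulk tissue, fewer cells of a type and less RNA per cell cannot be told apart.

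C1qa, C1qb and C1qc encode the 3 chains of C1q, which binds antibody complexes and starts the classical pathway. They lie side by side on chromosome 4, C1qa at chr4:136895917-136898803, C1qc at chr4:136889804-136893065 and C1qb at chr4:136880129-136886187, all on the minus strand. C1qa measured 47.3 and 47.0 FPKM in the WT females, 28.4 and 33.9 in the WT males, 146 and 189 in females labelled LKO, and 35.6 and 37.9 in males labelled LKO. C1qb measured 56.1, 43.4, 32.4 and 35.6 FPKM in WT replicates 1 to 4 and 143, 218, 41.1 and 45.0 in the LKO-labelled ones. C1qc, in the same order, measured 37.2, 36.3, 21.9 and 29.7, then 93.3, 131, 26.1 and 34.4 FPKM. For each chain females labelled LKO stood above all other libraries, whereas males labelled LKO lay within or near the WT range, so the genotypes overlapped.

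Within females the 3 chains rose 3.56-, 3.63- and 3.05-fold in mean FPKM for C1qa, C1qb and C1qc. Their log2 changes were 1.80 ± 0.22, 1.82 ± 0.27 and 1.56 ± 0.27 (SE), with limma adjusted p of 0.00149, 0.00263 and 0.00478, and all 3 calls held in 18 of 18 alternatives. In males the changes were 0.24, 0.33 and 0.23, with limma adjusted p of 0.511, 0.437 and 0.615. The female minus male difference passed the threshold for C1qa (1.56 ± 0.32 SE; limma interaction, adjusted p 0.033), and not for C1qb (0.0578) or C1qc (0.0763). That of C1qa held in 11 of 18 alternatives. It ended without any WT library or LKO-labelled male and after median-of-ratios scaling. With both sexes in the model the changes were 1.02 ± 0.31 for C1qa and 1.07 ± 0.32 for C1qb (SE; limma adjusted p 0.0406 and 0.0358), and 0.89 ± 0.30 for C1qc (0.0523). Both calls ended without WT replicate 1, 2 or 3 or LKO-labelled replicate 1, 2 or 4, with adjusted p up to 0.193 and 0.159 over all alternatives. The chains kept close proportions: the ratio of C1qb to C1qa in FPKM was 0.925 to 1.19 in all 8 libraries, and that of C1qc to C1qa was 0.638 to 0.906.

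Macrophage markers rose in the same libraries. In females 8 of 10 general macrophage markers rose and 1, Cd163, fell, where 28.1% and 6.23% of all genes tested did. In males 2 rose and 1 fell, where 13.4% and 4.09% of all genes did. Their summed level was 135 and 163 FPKM in the WT females and 73.3 and 89.4 in the WT males. It was 824 and 1092 FPKM in females labelled LKO and 65.5 and 123 in males labelled LKO. This sum is led by Lyz2, at 61.5 and 88.1 FPKM in the WT females and 531 and 721 in females labelled LKO. In females Csf1r and Adgre1 rose 2.52- and 2.09-fold in mean FPKM, and Cd68, Cd14, Mpeg1, Aif1, Lyz2 and Fcgr1 rose more than these. Of 10 markers of recruited macrophages all 10 rose in females, with sums of 34.4 and 34.7 FPKM in WT and 639 and 3652 in LKO-labelled livers, and 0 of 10 passed in males (46.9 and 90.6 against 32.6 and 33.0 FPKM in WT). Among them Gpnmb, a lysosomal membrane protein, was highest in LKO-labelled replicate 2, at 158 FPKM. Spp1, another of these 10, is also on a list of 6 cholangiocyte markers, so the recruited macrophage sum is not particular to macrophages. The 6 summed to 293 and 3158 FPKM in females labelled LKO and to 7.46 to 22.1 in the other libraries, with Krt19, Krt7 and Cftr below 1 FPKM in all. The ratio of C1qa to Csf1r, both in FPKM, was 3.16 to 4.17 in WT and 3.71 to 6.004 in LKO-labelled livers. The part of macrophage number in the C1q values was not tested.

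C5ar1 and C3ar1 encode the receptors for the anaphylatoxins C5a and C3a, which draw and activate neutrophils and macrophages. C5ar1 (ENSMUSG00000049130, chr7:16246743-16259540, minus strand) measured 0.616 and 0.672 FPKM in the WT females, 0.283 and 0.287 in the WT males, 7.81 and 11.9 in females labelled LKO, and 0.545 and 1.02 in males labelled LKO. C3ar1 (ENSMUSG00000040552, chr6:122847138-122856161, minus strand) measured 1.10, 0.916, 0.540 and 0.415 FPKM in WT replicates 1 to 4 and 3.67, 23.4, 0.767 and 2.41 in the LKO-labelled ones. Both receptors were near 1 FPKM or lower in WT and highest in females labelled LKO, with LKO-labelled male 3 inside the WT range. C5ar1 rose with genotype (log2 1.58 ± 0.43 SE, limma adjusted p 0.0276) and in females (2.70 ± 0.26 SE, 15.3-fold in mean FPKM, limma adjusted p 0.000643), and its change in males was 0.46 (0.263). The female minus male difference was 2.24 ± 0.37 (SE; limma interaction, adjusted p 0.0207). This call was lost without any WT library or LKO-labelled male and at a pseudocount of 0.1, and it held in 10 of 17 alternatives. The genotype call ended without WT replicate 1 or 2 or either LKO-labelled female, with adjusted p up to 0.107 over the alternatives, whereas the female call held in 17 of 17. C3ar1 was called in females (log2 2.41 ± 0.69 SE, limma adjusted p 0.0316), though not without any 1 of the WT libraries (adjusted p up to 0.135), and not with both sexes (1.57 ± 0.55 SE, 0.0593). LKO-labelled replicate 2 alone supplies much of that mean.

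Neutrophils carry both receptors too. Of 8 neutrophil markers 5 were tested and all 5 rose in females, where 28.1% of all genes tested did. The summed level of the 8 was 1.84 and 4.64 FPKM in the WT females and 373 and 56.1 in females labelled LKO. In males the sums were 1.21 and 1.56 against 9.53 and 16.5 FPKM. Ly6g, Mpo and Elane, the 3 listed markers that were not tested, were below 1 FPKM in all 8 libraries. Of the pair of LKO-labelled females, that with the higher neutrophil sum was the lower in both receptors. Relative to Csf1r, C5ar1 had a ratio of FPKM of 0.0353 to 0.0459 in WT, 0.240 and 0.282 in females labelled LKO, and 0.0918 and 0.0995 in males labelled LKO. The part of these cell types in the receptor values was not tested.

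The 3′ untranslated regions (3′ UTRs) of 3 of the 31 genes hold the letters TATTTAT, the DNA form of the site that TTP-family proteins bind. They are shown because the targeted proteins act on such sites. In the GENCODE M21 annotation 25.5% of 20993 genes have this word in their 3′ UTR. Among genes with a 3′ UTR of like length the shares were 51.0% for C3ar1, 32.0% for C5ar1 and 31.8% for Cd55. Each window is written 5′ to 3′ on the gene's strand (minus, GRCm38), with the word in capitals, overlapping copies joined.
C3ar1, chr6:122847304-122847332: ttgtgatacatTATTTATtcagttgtcaa
C5ar1, chr7:16247200-16247228: aaaagcacgTATTTATTTATtttgtgggg
Cd55, chr1:130439089-130439117: taaaccTATTTATATTTATTTATatccgt
C3ar1 has 1 copy, C5ar1 has 2 and Cd55 has 3. Of these genes both receptors were called higher in females labelled LKO, and neither was called in males. In those females Zfp36l2 stood above WT, and all 3 targeted genes were lowest in males labelled LKO. Cd55, described with the regulators, was not called with the deposited values. It was called lower after median-of-ratios scaling and after quantile normalization. Any link between the word and these changes was not tested. The word is a description of the sequence, and binding was not measured.

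Cfp encodes properdin, which stabilises the alternative-pathway convertase and is made by myeloid cells. It measured 23.4 and 18.5 FPKM in the WT females, 8.06 and 9.30 in the WT males, 27.1 and 23.6 in females labelled LKO, and 6.12 and 10.4 in males labelled LKO. Females were higher than males in both genotypes, and the genotypes overlapped (log2 0.09 ± 0.21 SE; limma adjusted p 0.762). The sex difference was called in LKO-labelled livers (male minus female log2 −1.55 ± 0.27 SE, limma adjusted p 0.00675) and not in WT (−1.17 ± 0.27 SE, 0.339). The ratio of Cfp to Csf1r in FPKM was 1.15 to 1.56 in WT and 0.560 to 1.03 in LKO-labelled livers. That of C1qa to Csf1r was 3.16 and 3.21 in WT females and 4.50 and 4.49 in females labelled LKO. In males it was 4.17 in both WT libraries and 6.004 and 3.71 in the LKO-labelled ones.

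**Figure D2:**
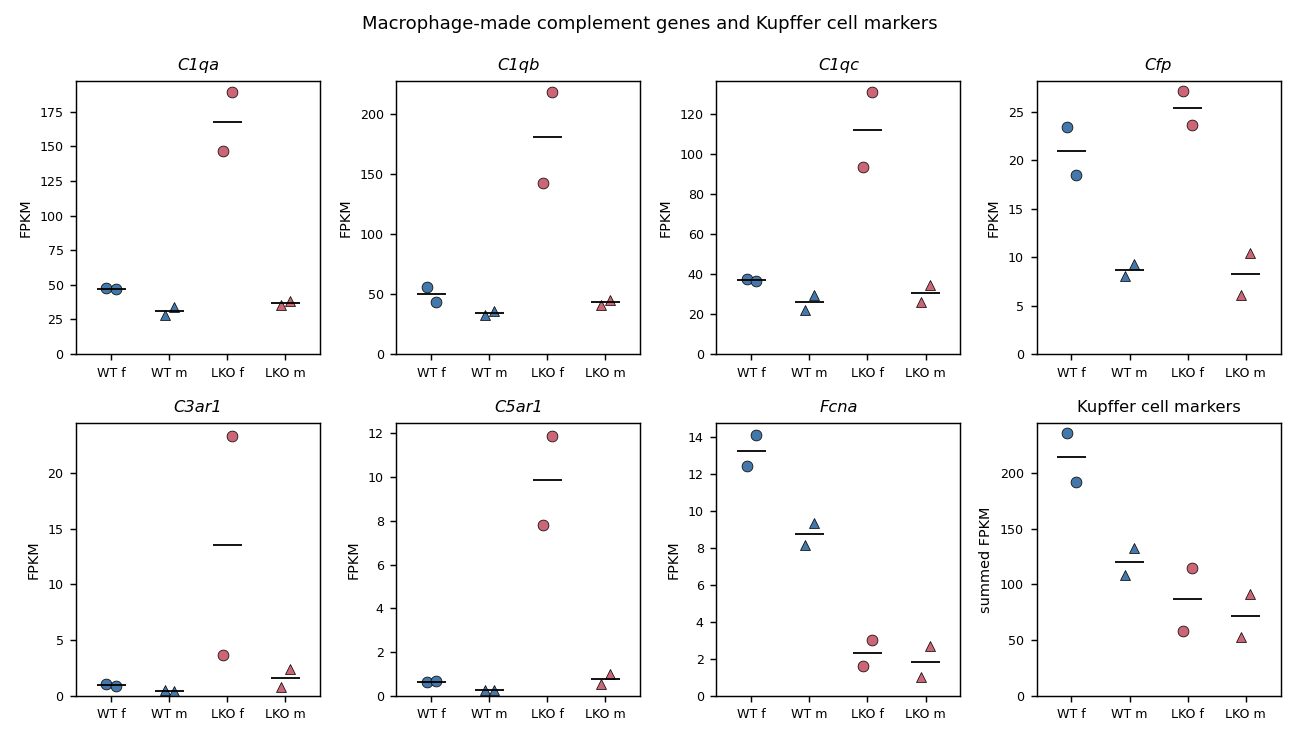
FPKM of the 7 macrophage-made complement genes, and the summed FPKM of 7 Kupffer cell markers, in WT and LKO-labelled females (f) and males (m). Points are libraries (2 per group), and lines are group means. The C1q chains and both receptors are highest in females labelled LKO, Cfp separates the sexes, and Fcna is low in all 4 LKO-labelled libraries beside the lower Kupffer cell sum.

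The proteases of the classical pathway were lower in part of the LKO-labelled livers. C1rl, a C1r-like serine protease (ENSMUSG00000038527, chr6:124493113-124510643, plus strand), measured 51.4, 49.4, 47.1 and 44.8 FPKM in WT replicates 1 to 4 and 30.7, 19.9, 21.1 and 17.1 in the LKO-labelled ones. All LKO-labelled livers were below all WT livers. Its mean fell from 48.2 ± 2.85 FPKM in WT to 22.2 ± 5.91 in LKO-labelled livers (SD, n = 4 each), a log2 change of −1.11 ± 0.19 (SE; limma adjusted p 0.00532), with like changes in females (−0.997) and males (−1.23) and an interaction of 0.23 ± 0.36 (SE; limma adjusted p 0.719). The neighbouring C1ra, the protease that activates C1s, measured 71.6, 74.8, 68.9 and 85.5 FPKM in WT and 86.8, 51.7, 17.7 and 34.1 in LKO-labelled replicates 1 to 4. The LKO-labelled males were lowest and LKO-labelled female 1 the highest of all. C1ra was called lower in males (log2 −1.60 ± 0.36 SE, limma adjusted p 0.025), but not without any 1 WT library or LKO-labelled replicate 3 (adjusted p up to 0.136), and not with both sexes (−0.86 ± 0.36 SE, 0.0946). C1s1, the protease that cleaves C4 and C2 in this pathway, measured 92.3 to 106 FPKM in WT and 47.1, 93.7, 52.8 and 53.1 in the LKO-labelled livers. LKO-labelled replicate 2 lay within the WT range and the rest were lower (log2 −0.69 ± 0.24 SE; limma adjusted p 0.0562). Without that library, C1s1 was called lower (−0.92, limma adjusted p 0.00769). The mouse genome also holds the copies C1rb and C1s2, which were under 0.3 FPKM in every library.

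C3, whose cleavage is the central step of all pathways, was the most abundant gene of the list in every library but 1, where Clu was higher. It measured 2024 and 2476 FPKM in the WT females, 1031 and 1259 in the WT males, 1661 and 1663 in females labelled LKO, and 1569 and 1657 in males labelled LKO. WT females were above and WT males below the LKO-labelled livers, which lay close together, so the overall change was 0.04 ± 0.28 (SE; limma adjusted p 0.931). The sex difference in WT, male minus female, was −0.97 ± 0.29 in log2 (SE; limma adjusted p 0.605), against −0.04 ± 0.29 in LKO-labelled livers, and the interaction was −0.93 ± 0.41 (0.201). C4b, the mouse C4 of the classical and lectin pathways, measured 163, 238, 156 and 161 FPKM in WT replicates 1 to 4 and 290.4, 220.4, 303 and 258 in the LKO-labelled ones. All but 1 of the LKO-labelled libraries were above all WT libraries (log2 0.59 ± 0.22 SE; limma adjusted p 0.0707). Without LKO-labelled replicate 2, C4b was called higher (0.71, limma adjusted p 0.0434). C4a is a near copy of C4b, so fragments may be shared between them.

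C2, which supplies the protease of the C3 convertase, measured 2.64 to 4.30 FPKM in WT and 1.37 to 5.76 in LKO-labelled livers (log2 0.06 ± 0.27 SE; limma adjusted p 0.874). Cfb, factor B, its alternative-pathway counterpart and next gene on chromosome 17, measured 0.529 to 0.825 FPKM in WT and 0.232 to 1.05 in LKO-labelled livers (log2 −0.03 ± 0.21 SE; limma adjusted p 0.91). Both values are uncertain, because the annotated read-through gene Gm20547 covers 42.8% of the exonic bases of C2 and 79.5% of those of Cfb on the same strand and is itself listed at 0 in all 8 libraries. Cfd, factor D or adipsin, the protease that cleaves factor B and a product of fat cells, was listed at 0 in 5 libraries. It was at 0.574 FPKM in WT replicate 4 and at 0.346 and 0.0608 FPKM in males labelled LKO, from 8, 6 and 1 fragments, where counting error alone allows 3 fragments behind a listed 0 (two-sided exact permutation p = 1). Of 6 adipocyte markers, Adipoq, Plin1, Lep and Retn were under 1 FPKM in all 8 libraries, with Plin1 and Lep at 0, whereas Fabp4 and Cidec were higher in every LKO-labelled library than in every WT library. Fabp4, a fatty acid-binding protein that macrophages also make, rose with genotype from a mean of 10.6 to 242 FPKM (log2 4.08, limma adjusted p 0.000934), while the means of Cidec, a lipid droplet protein, were 2.21 and 26.8 FPKM (limma adjusted p 0.0593). The 6 summed to between 10.1 and 16.6 FPKM in the WT libraries and to between 91.8 and 440.3 in the others. None of C2, C3, C4b and Cfb passed the test in either sex, with 1 of them, C4b, under 0.05 before adjustment in males.

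The terminal components showed the widest spread of the list between sexes. C6, C8a, C8b and C9 encode proteins that join C5b to form the pore. Terminal complement activity is known to be higher in male than in female mice. C6 (ENSMUSG00000022181, chr15:4727175-4814967, plus strand) measured 5.48 and 4.94 FPKM in the WT females, 49.7 and 63.7 in the WT males, 3.17 and 6.04 in females labelled LKO, and 6.66 and 4.83 in males labelled LKO. Only the WT males were high, and males labelled LKO lay at the female level.

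C8a (ENSMUSG00000035031, chr4:104815679-104876398, minus strand) measured 30.8 and 17.2 FPKM in the WT females, 160.1 and 218 in the WT males, 21.1 and 37.2 in females labelled LKO, and 9.65 and 4.42 in males labelled LKO. C8b (ENSMUSG00000029656, chr4:104766317-104804548, plus strand) measured 35.6, 21.7, 111 and 123 FPKM in WT replicates 1 to 4 and 22.8, 18.2, 28.8 and 23.2 in the LKO-labelled ones. C9 (ENSMUSG00000022149, chr15:6445327-6498751, plus strand) measured 85.4, 74.1, 221 and 236, then 144, 76.6, 7.20 and 33.2 FPKM. In each of these genes the WT males were the highest libraries. The LKO-labelled males were the lowest in C8a and C9, below the females of either genotype, while in C8b they were within the female range.

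In WT the male minus female difference was 3.21 ± 0.30 for C6, 2.96 ± 0.44 for C8a and 2.03 ± 0.28 for C8b in log2 (SE), with limma adjusted p of 0.00424, 0.0456 and 0.0366. These 3 were the complement genes of the list called between the WT sexes, out of 30, where 0.427% of all genes tested were called. C9, at 1.51 ± 0.61 (SE), was not (limma adjusted p 0.92). The C6 call ended without WT replicate 2 or 4. Those of C8a and C8b ended without any 1 of the WT libraries or without LKO-labelled replicate 3 or 4, and without WT replicate 4 and LKO-labelled replicate 1 together. With 2 livers of each sex and genotype, the model has 4 residual degrees of freedom.

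The same genes fell in LKO-labelled males, to 10.1% of the WT male mean for C6, 3.72% for C8a, 22.2% for C8b and 8.85% for C9. The log2 changes were −3.10 ± 0.30, −4.63 ± 0.44, −2.13 ± 0.28 and −3.77 ± 0.61 (SE), with limma adjusted p of 0.00182, 0.00171, 0.00487 and 0.00875. Those of C6, C8a and C8b held in 18 of 18 alternatives, and that of C9 ended without WT replicate 3 or 4 (adjusted p up to 0.0656). In females none of them passed, with changes of −0.20, 0.27, −0.43 and 0.40. The female minus male differences were 2.90 ± 0.42 for C6, 4.90 ± 0.62 for C8a, 1.70 ± 0.40 for C8b and 4.17 ± 0.87 for C9 (SE; limma interaction, adjusted p 0.0157, 0.0121, 0.047 and 0.0348). All 4 of these calls ended without any 1 of the WT libraries, with adjusted p of at most 0.164 over the alternatives, and the sign was the same throughout. Those of C6 and C8b also ended without LKO-labelled replicate 3 or 4, and that of C9 without replicate 3. The interaction was called in 14 of 18 alternatives for C8a, 12 for C6, 11 for C9 and 4 for C8b, which lost it under all scalings tried. With both sexes in 1 model C6 (−1.65 ± 0.54 SE) and C8b (−1.28 ± 0.35 SE) were called (limma adjusted p 0.0493 and 0.0284), C8a (0.0919) and C9 (0.143) were not, and no overall value describes both sexes. Both overall calls ended without WT replicate 1, 3 or 4 or LKO-labelled replicate 3 or 4, and that of C6 also without WT replicate 2 or LKO-labelled replicate 1.

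C8g, a lipocalin that joins the C8 alpha chain, was lowest in the other sex. It measured 225 and 226 FPKM in the WT females, 289 and 275 in the WT males, 67.9 and 38.9 in females labelled LKO, and 197 and 165 in males labelled LKO. All LKO-labelled livers were below WT, the females furthest. C8g fell with genotype (log2 −1.38 ± 0.33 SE, limma adjusted p 0.0181) and in females to 23.7% of WT (−2.11 ± 0.30 SE, 0.00226, called in 18 of 18 alternatives), and its change in males was −0.64 ± 0.30 (SE; 0.175). The overall call ended without WT replicate 1 or 2 (adjusted p up to 0.0663), and the interaction, −1.47 ± 0.42 (SE), had an adjusted p of 0.0766. Hc, which encodes C5, measured 116, 117, 111 and 130.3 FPKM in WT and 82.4, 66.8, 102 and 129 in LKO-labelled replicates 1 to 4. The LKO-labelled females were the lowest libraries (female log2 −0.65 ± 0.24 SE, limma adjusted p 0.0697). The overall change of Hc was −0.36 ± 0.20 (SE; limma adjusted p 0.189). The ratio of C8a to C8b in FPKM was 0.796 to 0.864 in WT females, 1.44 and 1.78 in WT males, 0.928 and 2.05 in LKO-labelled females, and 0.336 and 0.191 in LKO-labelled males. The highest and the lowest ratios were thus both in LKO-labelled livers.

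C8a and C8b are neighbours on chromosome 4 with their 3′ ends facing. Their promoters are shown because both genes were higher in WT males than in WT females and fell in LKO-labelled males. Sequences are those of RefSeq (GRCm38.p6), from 250 bases before to 50 after the annotated start, which covered 24 of the 31 genes. Sex differences of mouse liver genes are known to depend on growth hormone and STAT5, so the STAT word TTCNNNGAA was searched, which reads the same on both strands, and its matches are in capitals.
C8a, chr4:104876349-104876648, minus strand: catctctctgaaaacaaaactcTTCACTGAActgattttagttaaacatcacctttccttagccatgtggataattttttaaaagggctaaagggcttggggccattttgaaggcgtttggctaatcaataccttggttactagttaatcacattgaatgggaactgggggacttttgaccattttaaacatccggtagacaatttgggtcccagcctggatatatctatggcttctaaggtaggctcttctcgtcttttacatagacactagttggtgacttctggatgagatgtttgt
C8b, chr4:104766067-104766366, plus strand: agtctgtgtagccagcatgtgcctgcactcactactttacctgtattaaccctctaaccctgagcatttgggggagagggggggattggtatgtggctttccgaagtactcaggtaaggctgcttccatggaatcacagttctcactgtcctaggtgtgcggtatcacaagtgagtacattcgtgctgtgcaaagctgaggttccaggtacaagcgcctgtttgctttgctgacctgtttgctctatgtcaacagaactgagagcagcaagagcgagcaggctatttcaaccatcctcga
C8a holds 1 match and C8b holds none in this window. The word was found in 4 of the 24 promoters (C1ra, C8a, Masp2 and Colec11), or 16.7%, and in 8.47% of 27025 promoters of all genes. C6 and C9 had none. The myeloid word GAGGAAGT, bound by PU.1 and searched on both strands, was in 1 of the 24, that of C1qc, and in 3.28% of all promoters. A match is a description of the letters.

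**Figure D3:**
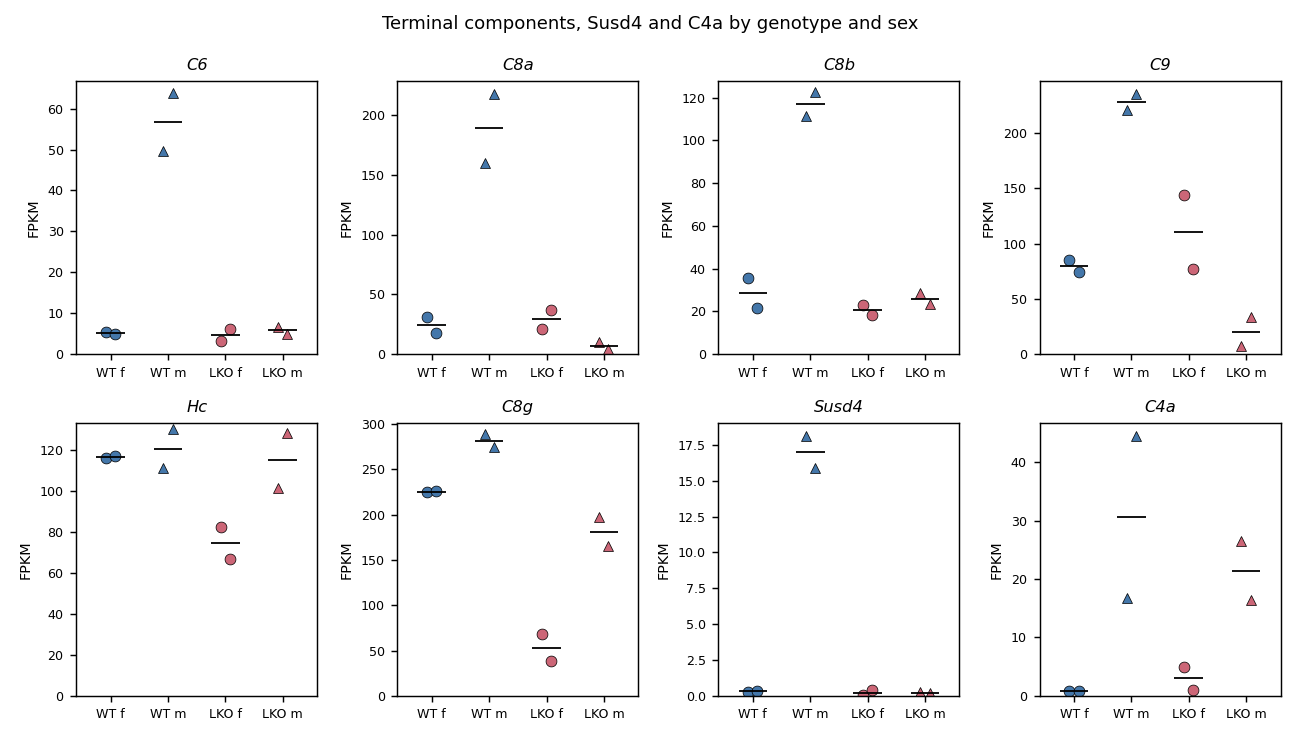
FPKM of the terminal components C6, C8a, C8b, C9, Hc and C8g, and of the companion genes Susd4 and C4a, in WT and LKO-labelled females (f) and males (m). Points are libraries (2 per group), and lines are group means. C6, C8a, C8b, C9 and Susd4 are highest in WT males and low in LKO-labelled males, C8g is lowest in LKO-labelled females, and C4a is higher in males of both genotypes.

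Among the regulators, C4bp encodes the plasma binding protein that helps inactivate C4b. It measured 99.4 and 87.0 FPKM in the WT females, 132 and 144 in the WT males, 39.7 and 93.5 in females labelled LKO, and 15.9 and 16.3 in males labelled LKO. The LKO-labelled males were far below all others, and LKO-labelled female 2 lay within the WT female range. C4bp fell in males to 11.7% of WT (log2 −3.02 ± 0.37 SE, limma adjusted p 0.00403, called in 18 of 18 alternatives), and its female change was −0.60 ± 0.37 (SE; 0.24). The difference was 2.42 ± 0.52 (SE; limma interaction, adjusted p 0.0389), and it was not called without any WT library or LKO-labelled male. The overall change, −1.81 ± 0.49 (SE; limma adjusted p 0.0265), was not called without WT replicate 3 or 4 or LKO-labelled replicate 1, 3 or 4 (adjusted p up to 0.137).

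Cd59a encodes a membrane-anchored protein that blocks C9 from completing the pore. It measured 47.6, 40.5, 50.2 and 45.9 FPKM in WT replicates 1 to 4 and 35.7, 30.8, 22.6 and 25.7 in the LKO-labelled ones. The genotypes did not overlap, with males labelled LKO lowest. It fell from 46.1 ± 4.08 FPKM in WT to 28.7 ± 5.75 in LKO-labelled livers (SD, n = 4 each), a log2 change of −0.68 ± 0.18 (SE; limma adjusted p 0.027), a call that ended without WT replicate 1, 3 or 4 or LKO-labelled replicate 3 or 4 (adjusted p up to 0.0778). In males the change was −0.96 ± 0.21 (SE; limma adjusted p 0.0215), not called without any 1 of the 4 male libraries (adjusted p up to 0.139). Cd59b is a near copy, so fragments may be shared.

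Cd55, or decay-accelerating factor, a membrane protein that breaks up convertases, measured 7.82, 3.94, 3.32 and 4.77 FPKM in WT and 1.78, 3.67, 1.72 and 3.29 in LKO-labelled replicates 1 to 4. The ranges overlapped slightly (log2 −0.71 ± 0.28 SE; limma adjusted p 0.085). Cd55 was called lower after median-of-ratios scaling and after quantile normalization (limma adjusted p down to 0.0248) and in no other alternative. Cfi, factor I, the plasma protease that cleaves C3b and C4b, varied little, from 229 to 335 FPKM in WT and from 272 to 347 in LKO-labelled livers (log2 0.09 ± 0.20 SE; limma adjusted p 0.754). Clu, clusterin, a secreted chaperone that holds back the terminal complex and is made by many cell types, measured 662, 847, 618 and 788 FPKM in WT and 565, 1927, 585 and 762 in LKO-labelled livers. LKO-labelled replicate 2 alone was high, where Clu made up 35.1% of the summed FPKM of the 31 genes against 12.9% to 19.0% elsewhere, and no difference passed (log2 0.21 ± 0.39 SE; limma adjusted p 0.693).

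Across sexes the genotype effects went apart. In females 5 of the 30 genes rose (C1qa, C1qb, C1qc, C3ar1 and C5ar1) and 5 fell (C1rl, C8g, Masp2, Mbl1 and Fcna), where 28.1% and 6.23% of all genes tested did. In males 0 rose and 10 fell (C1ra, C1rl, C4bp, C6, C8a, C8b, C9, Mbl1, Fcna and Cd59a), where 13.4% and 4.09% of all genes did. Without LKO-labelled replicate 2 the count that fell in females was 8. Without WT replicate 3 or 4 the count that fell in males was 5, and without LKO-labelled replicate 3 it was 6. Without LKO-labelled replicate 1 or 2, 1 gene was called higher in males. The count of 0 from limma in males compares with 1 gene, C4b, that was higher at an unadjusted p under 0.05. C1rl, Mbl1 and Fcna were called lower in both sexes. Called in females, C1rl did not hold without WT replicate 1 or 2 (adjusted p up to 0.106), and called in males, not without any 1 of the 4 male libraries (up to 0.116). The interaction was called for 9 of 30 genes, positive for C1qa, C4bp, C6, C8a, C8b, C9, Mbl1 and C5ar1 and negative for Masp2, where 7.21% of all genes were called. Without any 1 of the WT libraries this count was 0, and without LKO-labelled replicate 1, 3 and 4 it was 15, 1 and 3.

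Between the sexes of the LKO-labelled livers, a contrast added after the values were seen, 12 of 30 genes were called, where 26.4% of all genes were. C8g and Masp2 were higher in males, and C1qa, C1qb, C1qc, C1ra, C4bp, C8a, C9, Cfp, Mbl1 and C5ar1 in females. C8a thus had opposite sex differences in the genotypes, higher in males in WT (log2 2.96) and higher in females in LKO-labelled livers (−1.94 ± 0.44 SE; limma adjusted p 0.0167). Among these calls that of C8a ended without LKO-labelled replicate 2 or 4, that of C4bp without replicate 3 or 4, that of C9 without replicate 1 or 3, and that of C1ra without WT replicate 1 or 2 or LKO-labelled replicate 1 or 3, with adjusted p of at most 0.15 over the alternatives. The targeted genes also stood at different levels in the sexes, as given above, and the part of this in the sex differences was not tested.

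**Figure D4:**
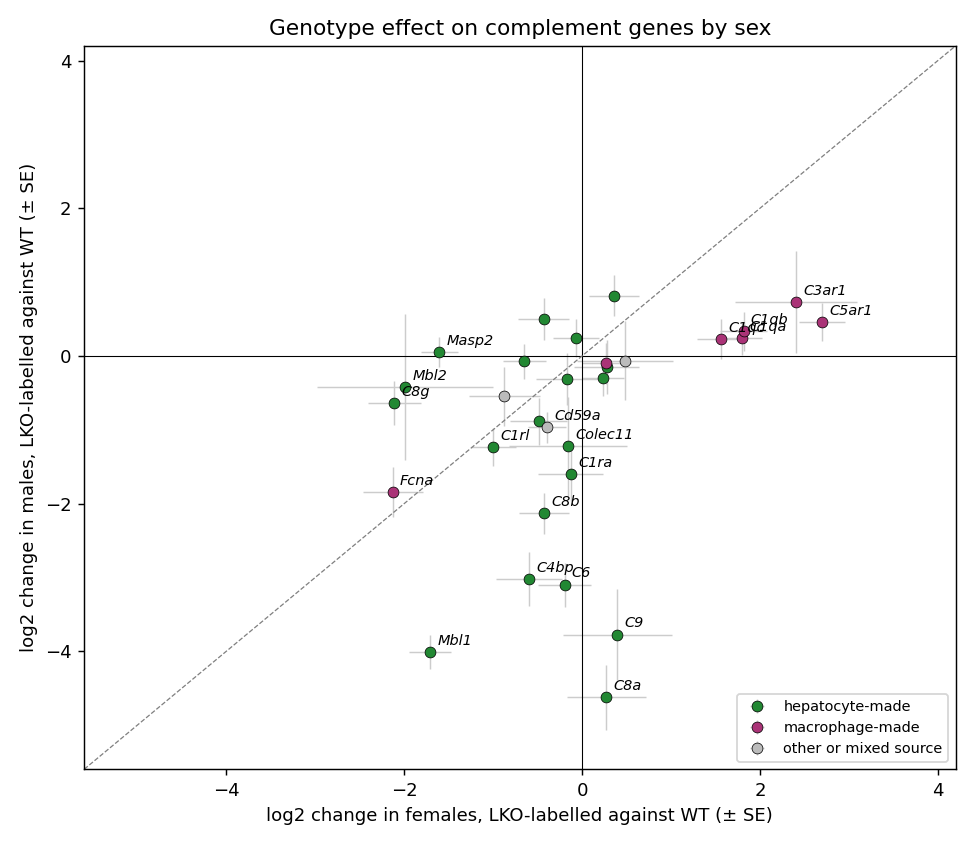
Log2 change of each of the 30 tested complement genes, LKO-labelled against WT, in females (horizontal axis) and males (vertical axis), with standard errors as lines and the dashed line marking equal changes. Colours give the usual source. C8a, C9, C6 and C4bp lie far below 0 in males and near 0 in females, the C1q chains and receptors lie to the right, and Fcna, C1rl and Mbl1 are low on both axes.

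By usual source the calls were as follows. Of 20 hepatocyte-made genes 0 rose and 6 fell with genotype, with a median change of −0.82, and 1, C4b, was higher at an unadjusted p under 0.05 in limma. Of 7 macrophage-made genes 3 rose and 1 fell, with a median of 1.02, where 24.7% of all genes tested rose and 5.74% fell. Within females the counts were 0 and 4 for hepatocyte-made genes (median −0.31) and 5 and 1 for macrophage-made genes (1.80), where 28.1% and 6.23% of all genes were called. In males they were 0 and 8 (−0.76) and 0 and 1 (0.24), where 13.4% and 4.09% of all genes were. The medians of all genes tested were 0.45 in females and 0.24 in males, so in males the median of the macrophage-made genes lay at that of genes in general. Their single changes in males ran from −1.84 for Fcna to 0.73 for C3ar1. After median-of-ratios scaling the overall medians were −1.25 and 0.58.

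The summed FPKM of the 20 hepatocyte-made genes was 4121, 4579, 3252 and 3744 in WT replicates 1 to 4 and 3359.6, 2921, 2877 and 3079 in the LKO-labelled ones. That of the 7 macrophage-made genes was 178, 161, 99.7 and 118, then 423, 599.8, 111 and 134. The macrophage-made share of both sums was 2.98% to 4.14% in WT, 11.2% and 17.0% in females labelled LKO, and 3.72% and 4.17% in males labelled LKO. The share was highest in females labelled LKO. The sums are led by C3, which made up 40.3% and 44.0% of all 31 genes in WT females, 25.6% and 26.8% in WT males and 30.3% to 43.6% in LKO-labelled livers. Of 9 hepatocyte markers 2 fell with genotype (Serpina1c and Hnf4a), 0 rose and 7 did not pass, with a median change of −0.73, where 5.74% of all genes fell. In females 3 of 9 fell (Serpina1c, Hnf4a and Cps1) and 0 rose, where 6.23% and 28.1% of all genes did. In males 3 of 9 fell (Apoa1, Ttr and Serpina1c) and 0 rose, where 4.09% and 13.4% of all genes did. Cps1 was at 24.1% of its mean WT level in females and 167% in males. Apoa1 was at 124% in females and 21.7% in males. Their female minus male differences were −2.76 and 2.57 in log2 (limma interaction, adjusted p 0.0157 and 0.0304). Ahsg and Fgb, which did not pass, were at 1.54 and 1.55 times their mean WT level in FPKM. The part of hepatocyte number or state in the hepatocyte-made values was not tested.

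Of 32 other complement genes, 24 were tested and 8 had means under 0.5 FPKM (C1rb, C1s2, Fcnb, Cr2, Cd46, Cd55b, Csmd1 and Ptx3). With genotype 5 rose and 8 fell, where 24.7% and 5.74% of all genes tested did, with a median change of −0.33. The 5 that rose were Itgam, Itgax and Itgb2, which form complement receptors 3 and 4 of leukocytes, Cd93, a receptor first described as binding C1q, and Apcs, the pentraxin serum amyloid P. Those that fell included Colec10, a collectin that pairs with collectin 11, Vsig4, the C3b receptor of Kupffer cells, Cd59b, Cpn2, a subunit of the carboxypeptidase that inactivates anaphylatoxins, and Crp, the pentraxin C-reactive protein. The calls of Cd59b, Itgax, Cd93 and Crp held in all alternatives run. Other calls ended when 1 library was left out. That of Colec10 ended without any 1 of the WT libraries or LKO-labelled replicate 3 or 4 (adjusted p up to 0.0742 over its alternatives). The Vsig4 call ended without WT replicate 1 or 2 or LKO-labelled replicate 3 (up to 0.075), that of Itgam without WT or LKO-labelled replicate 1 or 2 (up to 0.134), and that of Itgb2 without WT replicate 2 (up to 0.124). Cpn2 was not called without WT replicate 1, 2 or 3 or LKO-labelled replicate 1, 2 or 4 (up to 0.0987), nor Apcs without any library but LKO-labelled replicate 4 (up to 0.385). Within females 5 rose and 6 fell (28.1% and 6.23% of all genes), and within males 2 rose and 5 fell (13.4% and 4.09%). Vsig4 and Itgax also belong to the Kupffer cell and recruited macrophage marker lists.

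Crp measured 226 to 315 FPKM in WT and 44.6 to 148 in LKO-labelled livers (log2 −1.65 ± 0.35 SE; limma adjusted p 0.0115), and Apcs 57.1 to 121 and 66.5 to 249.9 (0.73 ± 0.24 SE; 0.0475). The call of Apcs held in 4 of 20 alternatives.

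Serping1, the C1 inhibitor, fell in males, from 328 and 376 FPKM in WT to 87.2 and 46.6 (log2 −2.44 ± 0.44 SE; limma adjusted p 0.0122), and in females it measured 349 and 416 in WT against 219.9 and 499. C1qbp, a mitochondrial protein that binds C1q globular heads, rose in males, from 35.6 and 31.9 FPKM to 113 and 84.0 (log2 1.51 ± 0.26 SE; limma adjusted p 0.0102). The call of Serping1 ended without WT replicate 3 or 4 or LKO-labelled replicate 4, and that of C1qbp without WT replicate 3 or 4 or LKO-labelled replicate 3, with adjusted p up to 0.0812 and 0.0746. Susd4, a membrane protein reported in human to inhibit complement, measured 0.262 and 0.354 FPKM in the WT females, 18.1 and 15.9 in the WT males, and 0.0644 to 0.379 in the LKO-labelled livers. As in C6, the WT males alone were high (male minus female in WT 3.78 ± 0.23 SE, limma adjusted p 0.000264; change in males −3.87 ± 0.23 SE, 0.000259), and these calls held in 17 of 17 alternatives. C4a, a C4 copy known as sex-limited protein, kept its sex difference: it measured 0.863, 0.822, 16.7 and 44.5 FPKM in WT and 5.01, 1.05, 26.5 and 16.3 in LKO-labelled replicates 1 to 4. Males were above females in both genotypes (male minus female log2 3.95 ± 0.59 SE in WT, limma adjusted p 0.0456, and 2.64 ± 0.59 SE in LKO-labelled livers, 0.0155). The WT call of C4a ended without any 1 of the WT libraries or LKO-labelled replicate 3 or 4 (adjusted p up to 0.365), and the LKO-labelled call without LKO-labelled replicate 3 or 4 (up to 0.11).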

How the data were processed

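The members and gene lists used here were chosen with earlier results of these data known. Liver RNA was measured in 8 libraries, and the deposited table holds FPKM values that the authors made. The tools named in the submitters' processing notes are fastp, STAR 2.6.1, HTSeq and DESeq2, with the mm10 build, and the sources used here give neither their roles nor the annotation release or strand setting. The steps between low FPKM values gave back depths of 15.1 to 18.8 M fragments. At these depths 22 of the 31 members came to whole fragments, to within 0.001, with the length of the longest transcript. For the rest, Cfd among them, the shortest length that gives whole fragments was taken, so their fragment numbers rest on that choice. Symbols and coordinates came from GENCODE M21 (GRCm38), matching 34490 of 35275 identifiers. Genes with a mean of at least 0.5 FPKM, 13573 in all, were tested on log2(FPKM + 1), a scale that understates changes of low genes, with limma-trend (limma 3.58.1, R 4.3.3) and Benjamini-Hochberg adjustment. Genotype and sex were the terms of 1 model, and a model with 1 mean per genotype and sex gave the contrasts within sex, between sexes and the interaction. All contrasts of LKO-labelled with WT livers share the same WT libraries within a sex. The script was tested on simulated data. Cfd, under the minimum, was tested by exact two-sided permutation of the 70 assignments, which cannot give a p below 0.0286. All 31 members and those markers that a result turns on are named, and some genes of the list of 32 other complement genes are counted but not reported here. Roles and sources follow textbook knowledge. Since FPKM are relative to the library total, a smaller share of abundant genes raises the values of others, and 20 alternatives included other scalings. Python 3.11.15, numpy 2.4.6, pandas 2.3.3, scipy 1.17.1 and matplotlib 3.10.9 were used.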

Additional observations from a re-analysis of the deposited data

Results flagged for a closer look

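In 7 of 62 groups of 4 libraries 1 library lay far from the other 3 for its gene, where chance alone gives about 1 in 20 groups. In 4 of them it was the second LKO-labelled female, which was the highest of its group for C1s1 (93.7 FPKM), Colec11 (60.6 FPKM), C3ar1 (23.4 FPKM) and Clu (1927 FPKM). LKO-labelled male 3 was the lowest of its group for C3 (1569 FPKM), where the other 3 lay between 1657 and 1663 FPKM. In WT, female 2 was the highest for C4b (238 FPKM), and male 4 was the highest for Cfd (0.574 FPKM), the others being listed at 0. A single value beside listed zeros always meets this rule.

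The genotype effect differed between the sexes, by a limma interaction over all genes, for 9 genes. The female minus male difference in log2 was 1.56 for C1qa, 2.42 for C4bp, 2.90 for C6, 4.90 for C8a, 1.70 for C8b, 4.17 for C9, 2.30 for Mbl1, 2.24 for C5ar1 and −1.66 for Masp2. The LKO-labelled females had 12667 and 12798 genes at 1 FPKM or more and 5.17% and 5.82% of FPKM in mitochondrial genes, against 10271 to 11239 genes and 10.5% to 17.0% in the other 6 libraries. The part of these differences in the interactions was not tested.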

How the results depend on the processing

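The contrast between LKO-labelled sexes was added after the values were seen. Counts of complement genes higher with genotype (3 as reported) were 5 at a pseudocount of 0.1, 1 at 5, 0 with no filter on low values, 1 with median-of-ratios size factors, 0 with quantile normalization, 1 with totals formed without the 50 most abundant genes, 0 with no term for sex, 0 with the replicate block and 0 without the 2 libraries low in Gm42418. Counts of those lower (8 as reported) were 5 with no filter, 13 after median-of-ratios scaling, 5 with no term for sex, 13 with array weights, 4 with the replicate block and 3 without the 2 libraries low in Gm42418. In females the count higher was 3 at a mean of at least 5 FPKM (5 as reported) and the count lower was 10 after median-of-ratios scaling (5 as reported). In males 1 gene was higher with array weights (0 as reported). Between WT sexes 1 was called with no filter and 1 without the 2 libraries low in Gm42418 (3 as reported). The median of hepatocyte-made genes moved from −0.82 to −1.25 after median-of-ratios scaling, and that of macrophage-made genes from 1.02 to 0.58 after that scaling and 0.57 with array weights.

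Leaving out 1 library at a time gave 0 to 5 genes higher and 4 to 11 lower with genotype, 4 to 7 and 4 to 8 in females, 0 to 1 and 5 to 13 in males, 0 to 15 interactions and 0 to 3 WT sex differences, and medians of −0.94 to −0.78 (hepatocyte-made) and 0.79 to 1.22 (macrophage-made). The replicate block paired livers with neighbouring title numbers, whose deviations correlated by 0.131 in females and 0.15 in males; no label says what such numbers share. The block kept C1rl, C8g, Mbl1 and Fcna. Over 2493 refits of single genes, 2074 stayed on the same side of the threshold, 383 lost the call and 36 gained one. In 0 refits did a called effect change sign or a gained call go against the sign first reported. Changes of sign among effects that stayed uncalled were not counted, and the genotype effects of C2, C3, Cfb, Cfi, Cfp and Clu took both signs. The causes of the changes in count were not tested. With 2 livers per sex and genotype, the design limits what the contrasts within sex can show, and depth limits Cfd, Cfb, C5ar1 in WT and Fcna in LKO-labelled livers.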
